A study of Mus musculus with 6 samples.

Results

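Chemokines and their receptors were described in bulk RNA sequencing of mouse liver, in 3 libraries of genotype IRE1PKO and 3 of genotype IRE1fl. The members were chosen by name alone, as the gene symbols that begin with Ccl, Cxcl, Cx3cl, Xcl, Ccr, Cxcr, Cx3cr or Xcr followed by a number and at most 1 letter. The rule found 57 of the 35976 genes in the table, of which 56 are described, 39 ligands and 17 receptors. Of these 56, 32 had 10 or more counts in 3 or more libraries and are reported, 21 ligands and 11 receptors. The 6 libraries share sex, diet and feeding state: the mice were male, on HFD (taken to mean a high-fat diet), and fasted for 16 h before being fed for 4 h. Both genotype names point to IRE1, the endoplasmic reticulum stress sensor encoded by Ern1, and IRE1fl is read here as the floxed allele without deletion. The labels do not spell out PKO, name the Cre driver or give the ages, and the series title places the work in signalling between pituitary and liver. They also do not say that each library is a separate animal, so every p-value rests on a spread between libraries that may be technical.

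Chemokines are small secreted proteins that guide migrating leukocytes along gradients, and they act through receptors coupled to G proteins. Those called inflammatory are switched on by cytokines and by NF-kB, AP-1 and interferon signalling, while those called homeostatic are made steadily and place lymphocytes and progenitors in their niches. In liver, Kupffer cells, endothelial cells, stellate cells and hepatocytes can all make them, and recruited monocytes carry receptors such as Ccr2.

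Total counts ran from 35776219 to 39277435 per library. Ern1 in liver had 45.7, 36.6 and 44.2 CPM (counts scaled to library size and composition) in the IRE1PKO libraries, against 61.2, 49.3 and 60.8 CPM in the IRE1fl libraries. The groups did not overlap and Ern1 fell by 0.44 on the log2 scale (SE 0.11, edgeR adjusted p = 0.0357). This checks the labels only if the deletion includes liver, which they do not state. Hepatocyte markers were at 107100 to 130100 summed CPM in IRE1PKO and 114800 to 135100 in IRE1fl over 16 genes, none at 0, as the tissue label says. IRE1fl 1 stood high for this gene family. It was the highest of the 3 IRE1fl libraries for 17 of 31 tested members, against 7 each for the other IRE1fl libraries. Results that rest on it are also given without it. Other libraries stood out nearly as much: IRE1PKO 3 was the highest of its group for 15 members and IRE1fl 3 the lowest of its group for 16.

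In IRE1PKO livers, 4 ligands (Ccl2, Ccl6, Ccl22 and Cxcl10) rose and 1 ligand (Ccl9) fell. These are 5 of the 31 described members that passed the filter on low counts, or 16.1%, by edgeR's quasi-likelihood test at an adjusted p under 0.05. Over all 14954 tested genes 9.54% were called. Members called higher were 12.9% of those tested, against 5.68% of all genes, and those called lower 3.23%, against 3.86%. The groups did not overlap for 9 members, where 31.0% of all tested genes did not. Of these 5 were higher in IRE1PKO, or 16.1%, and 4 lower, or 12.9%, close to the 16.0% and 15.0% of all tested genes. The median log2 fold change of the 31 members, IRE1PKO over IRE1fl, was 0.17, beside 0.00 over all genes. A member can pass the filter through the group where it is high, so these shares describe the members that passed and not the 56. Ccl22, 1 of the 4 called higher, and Ccl3 reached 10 counts in the IRE1PKO libraries only. Both thus met the reporting minimum through the group where they are high. The count rests on single libraries. It was 2 members higher without IRE1PKO 1, IRE1PKO 2, IRE1fl 2 or IRE1fl 3, 3 without IRE1PKO 3 and 8 without IRE1fl 1, with Ccl9 as the 1 lower member each time. Ccl2, Ccl6 and Ccl9 were called under every alternative that was run.

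**Figure D1:**
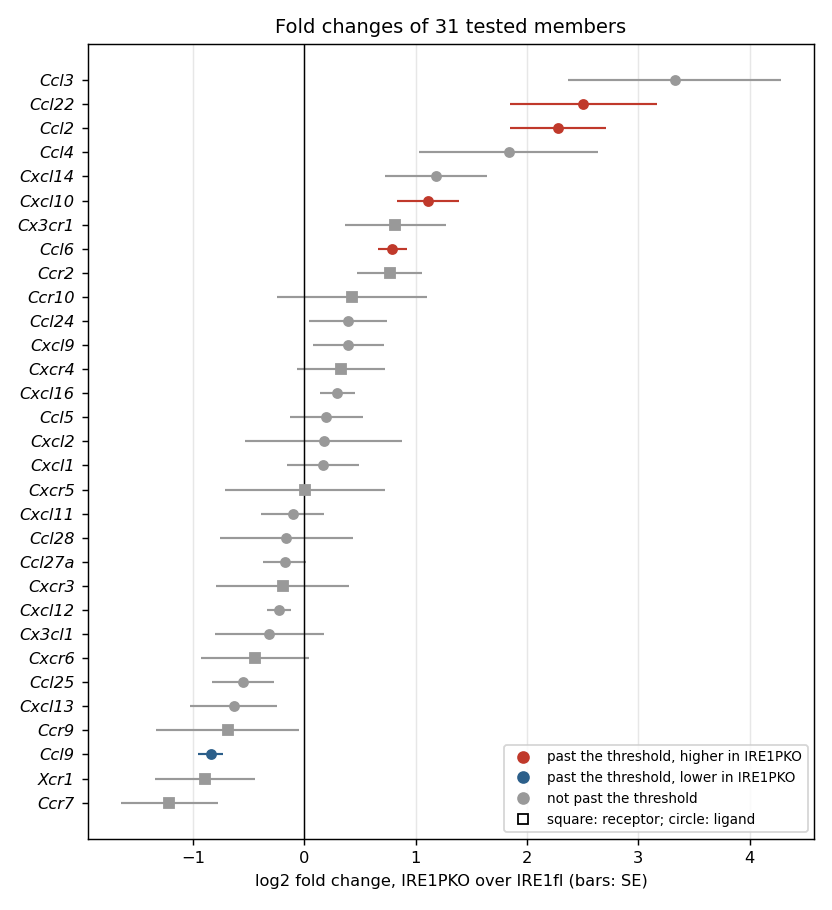
Log2 fold change (x axis, IRE1PKO over IRE1fl) of 31 tested members, ordered by size, with bars for the standard error, circles for ligands and squares for receptors. Ccl2, Ccl6, Ccl22 and Cxcl10 lie past the threshold on the right and Ccl9 on the left, and members with few counts such as Ccl3 have wide bars.

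The smallest edgeR p-values among the members were those of a pair of neighbouring ligands that moved in opposite directions. Ccl6 and Ccl9 are mouse CC chemokines that bind Ccr1, and their genes lie 9249 bases apart on chromosome 11 (Ccl6 at 83587886 to 83593087, Ccl9 at 83572917 to 83578636, GRCm38). Ccl6 had 11.7, 12.1 and 11.9 CPM in the IRE1PKO libraries, against 7.01, 6.27 and 7.30 CPM in the IRE1fl libraries. All IRE1PKO libraries were above all IRE1fl libraries, and Ccl6 rose by a log2 value of 0.79 (SE 0.13, edgeR adjusted p = 0.00406). Ccl9 had 34.0, 37.5 and 29.9 CPM in IRE1PKO, against 63.9, 52.3 and 65.4 CPM in IRE1fl. Here every IRE1PKO library was below every IRE1fl library, and Ccl9 fell by 0.84 on the log2 scale (SE 0.11, edgeR adjusted p = 0.00146). Leaving out single libraries gave Ccl6 values of 0.73 to 0.84 and Ccl9 values of -0.94 to -0.76, all past the threshold.

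The ratio of Ccl6 to Ccl9 counts within a library does not depend on how the libraries are scaled. It was 0.343, 0.321 and 0.397 in IRE1PKO, against 0.110, 0.120 and 0.112 in IRE1fl. The mean log2 ratios of -1.50 and -3.14 differed by 1.63, with no overlap. An exact two-sided permutation test gave p = 0.1, the smallest that 3 libraries against 3 allow, and 0.2 after Benjamini-Hochberg adjustment over the 4 ratios computed, which were chosen after the values were seen. Ccr1 itself stayed under the reporting minimum, with at most 10 counts in any library.

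The 250 bases before the start of both genes are shown because these neighbours changed in opposite directions. They are from RefSeq (GRCm38.p6), 5′ to 3′ on the minus strand. They cover chr11:83593088-83593337 for Ccl6 and chr11:83578637-83578886 for Ccl9. Capitals mark letters found by a search of both strands for 5 patterns. The kappaB pattern was GGG, any 3 bases, then TTCC or TCCC, and the AP-1 pattern was TGA, any base, then TCA. The IRF pattern was GAAA, any 2 bases, then GAAA, the STAT pattern was TTC, any 3 bases, then GAA, and the C/EBP pattern was TTGC, any 2 bases, then AA.
Ccl6: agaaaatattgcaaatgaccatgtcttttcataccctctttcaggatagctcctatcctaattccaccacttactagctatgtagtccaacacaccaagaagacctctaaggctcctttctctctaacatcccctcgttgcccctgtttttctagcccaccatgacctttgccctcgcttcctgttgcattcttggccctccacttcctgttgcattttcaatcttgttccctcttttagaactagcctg
Ccl9: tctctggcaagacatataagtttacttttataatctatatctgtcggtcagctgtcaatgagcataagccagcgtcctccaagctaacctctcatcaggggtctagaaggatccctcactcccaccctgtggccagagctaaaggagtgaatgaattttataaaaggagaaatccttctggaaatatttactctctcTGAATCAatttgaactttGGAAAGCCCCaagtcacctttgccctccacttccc
The Ccl9 window held an AP-1 pattern at positions -53 to -47 from the start and a kappaB pattern at -35 to -26, while none of the 5 patterns matched in the Ccl6 window. A global alignment of the 2 windows gave 46.2% identity over 273 columns. Over the 32536 distinct windows of this length in the RefSeq table, the kappaB pattern matched in 8.84% and the AP-1 pattern in 6.73%. A match is a description of letters and not a binding site.

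Ccl2, the main ligand of Ccr2 and the signal that draws monocytes from blood, had the largest change among the members called under every alternative. It had 2.72, 1.93 and 2.32 CPM in the IRE1PKO libraries, against 0.554, 0.170 and 0.701 CPM in the IRE1fl libraries. The lowest IRE1PKO library was above the highest IRE1fl library by more than the spread in either group. Ccl2 (chromosome 11, 82035577 to 82037452) rose by a log2 value of 2.28 (SE 0.43, edgeR adjusted p = 0.00767). Per kilobase of exon it stood at 2.04 ± 0.35 CPM in IRE1PKO and 0.417 ± 0.241 CPM in IRE1fl (SD, n = 3 each). Leaving out single libraries gave values of 1.88 to 2.67, with an adjusted p of at most 0.0463. Of the other Ccr2 ligands, Ccl7 was under the reporting minimum with 6, 14 and 30 counts in IRE1PKO, against 6, 6 and 4 in IRE1fl. Ccl12 had at most 6 counts in any library.

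The receptor Ccr2 had 2.82, 3.42 and 3.84 CPM in IRE1PKO, against 2.85, 1.76 and 1.32 CPM in IRE1fl. The groups overlapped through IRE1fl 1 alone, and the log2 value of 0.77 (SE 0.29) did not pass (edgeR adjusted p = 0.13). Without IRE1fl 1 it was 1.12 and passed (adjusted p = 0.0304). Without any other library it did not pass (edgeR adjusted p up to 0.338). Of the 10 tested receptors described here none passed by edgeR or DESeq2 and 2 had an unadjusted p under 0.05, with a median log2 value of -0.09. This median was -0.79 without IRE1PKO 3 and 0.14 without IRE1fl 1.

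Ccl3, Ccl4 and Ccl5, inflammatory CC chemokines of macrophages and T cells, were present at low counts. Ccl3 had 12, 10 and 14 counts in the IRE1PKO libraries, against 3, 0 and 0 counts in the IRE1fl libraries. The summed 36 and 3 counts give a ratio of 11.1 per scaled library total, with an exact 95% interval of 3.52 to 56.6. That interval covers counting error only and takes every count as independent. If both reads of a pair were counted, it is too narrow even for counting error. Ccl3 did not pass (edgeR adjusted p = 0.0511), but it did by DESeq2 (adjusted p = 0.0423), by limma-voom (0.0174) and without IRE1fl 1 (0.0263). Without any other library it did not pass (edgeR adjusted p up to 0.164). Its neighbour Ccl4 had 1.16, 0.407 and 0.342 CPM in IRE1PKO, against 0.415, 0.0567 and 0.0539 CPM in IRE1fl. The highest library of each group was its replicate 1, the groups overlapped, and the log2 value of 1.84 (SE 0.80) did not pass (edgeR adjusted p = 0.185). Without IRE1fl 1 the Ccl4 value was 3.44 and passed (adjusted p = 0.0357). It did not pass without any other library (edgeR adjusted p up to 0.554). The RefSeq models of Ccl3 and Ccl4 overlap, and whether the counting used strand is not given in the sources used here, so reads of the pair may be split or shared. Ccl5 had 1.69 ± 0.32 CPM in IRE1PKO and 1.47 ± 0.51 CPM in IRE1fl (SD, n = 3 each), a difference within the spread between libraries.

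Among ligands of Cxcr3, the receptor of activated T and NK cells, Cxcl10 rose and the others did not pass. Cxcl9, Cxcl10 and Cxcl11 are interferon-induced and lie side by side on chromosome 5, with 18558 bases between Cxcl9 and Cxcl10 and 10654 between Cxcl10 and Cxcl11. Cxcl10 had 11.6, 7.49 and 6.67 CPM in IRE1PKO, against 5.07, 2.58 and 4.26 CPM in IRE1fl. The groups did not overlap, and Cxcl10 (92346638 to 92348889) rose by a log2 value of 1.11 (SE 0.28, edgeR adjusted p = 0.0377). Its call was lost without IRE1PKO 1, IRE1PKO 2, IRE1fl 2 or IRE1fl 3, and the adjusted p then reached 0.124.

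Cxcl9 had 16.4, 15.9 and 15.6 CPM in the IRE1PKO libraries, against 19.0, 8.17 and 9.24 CPM in the IRE1fl libraries. IRE1fl 1 was above all other libraries and the remaining IRE1fl libraries were below all IRE1PKO libraries. The log2 value of 0.40 (SE 0.32) did not pass with all libraries (edgeR adjusted p = 0.503), and without IRE1fl 1 it was 0.87 and passed (adjusted p = 0.00314). It did not pass without any other library (edgeR adjusted p up to 0.775). Cxcl11 had 2.93, 1.93 and 2.96 CPM in IRE1PKO, against 3.41, 1.84 and 3.15 CPM in IRE1fl, overlapping throughout. Of its exon bases 41.7% are shared with a gene on the opposite strand, so its counts may hold reads of that gene. For Cxcl10 this share is 5.91%, with Art3.

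The count ratio of Cxcl10 to Cxcl11 was 3.96, 3.89 and 2.26 in IRE1PKO, against 1.49, 1.40 and 1.35 in IRE1fl. It did not overlap (exact permutation p = 0.1, the smallest possible, and 0.2 adjusted over the 4 ratios). The ratio of Cxcl10 to Cxcl9 was 0.708, 0.470 and 0.429 in IRE1PKO, against 0.267, 0.316 and 0.461 in IRE1fl, and it overlapped through IRE1fl 3 (exact permutation p = 0.2, adjusted 0.267). Against Cxcl11 the IRE1PKO libraries were thus all above the IRE1fl libraries, and against Cxcl9 they were not. The receptor Cxcr3 had 0.539, 0.760 and 0.367 CPM in IRE1PKO, inside the 0.170 to 1.11 CPM of IRE1fl.

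The upstream windows of Cxcl10 and Cxcl9 are shown beside each other because Cxcl10 rose while its neighbour Cxcl9 did not pass. They are chr5:92348890-92349139 and chr5:92328080-92328329 on the minus strand, with capitals as above.
Cxcl10: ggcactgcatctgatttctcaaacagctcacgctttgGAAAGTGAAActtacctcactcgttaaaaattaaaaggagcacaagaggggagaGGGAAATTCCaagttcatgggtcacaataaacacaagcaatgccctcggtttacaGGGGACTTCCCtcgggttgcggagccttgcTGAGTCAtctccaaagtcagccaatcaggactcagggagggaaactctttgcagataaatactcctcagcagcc
Cxcl9: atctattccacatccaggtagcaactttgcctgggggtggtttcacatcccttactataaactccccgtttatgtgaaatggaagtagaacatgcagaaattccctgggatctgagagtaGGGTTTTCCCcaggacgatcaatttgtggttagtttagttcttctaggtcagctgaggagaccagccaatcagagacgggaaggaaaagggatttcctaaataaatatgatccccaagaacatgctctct
The Cxcl10 window held an IRF pattern at -213 to -204, kappaB patterns at -159 to -150, -104 to -95 and -103 to -94, and an AP-1 pattern at -74 to -68. The last 2 kappaB matches overlap each other. The Cxcl9 window held a single kappaB pattern, at -130 to -121. Of the 23 reported members with a window in the table, 6 held a kappaB pattern (Ccl9, Cxcl1, Cxcl2, Cxcl9, Cxcl10 and Cxcl13), 3 an AP-1 pattern and 2 an IRF pattern. An IRF pattern matched in 2.98% of all windows. Of the 6 members with a kappaB pattern, Cxcl10 rose, Ccl9 fell and the other 4 did not pass.

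**Figure D2:**
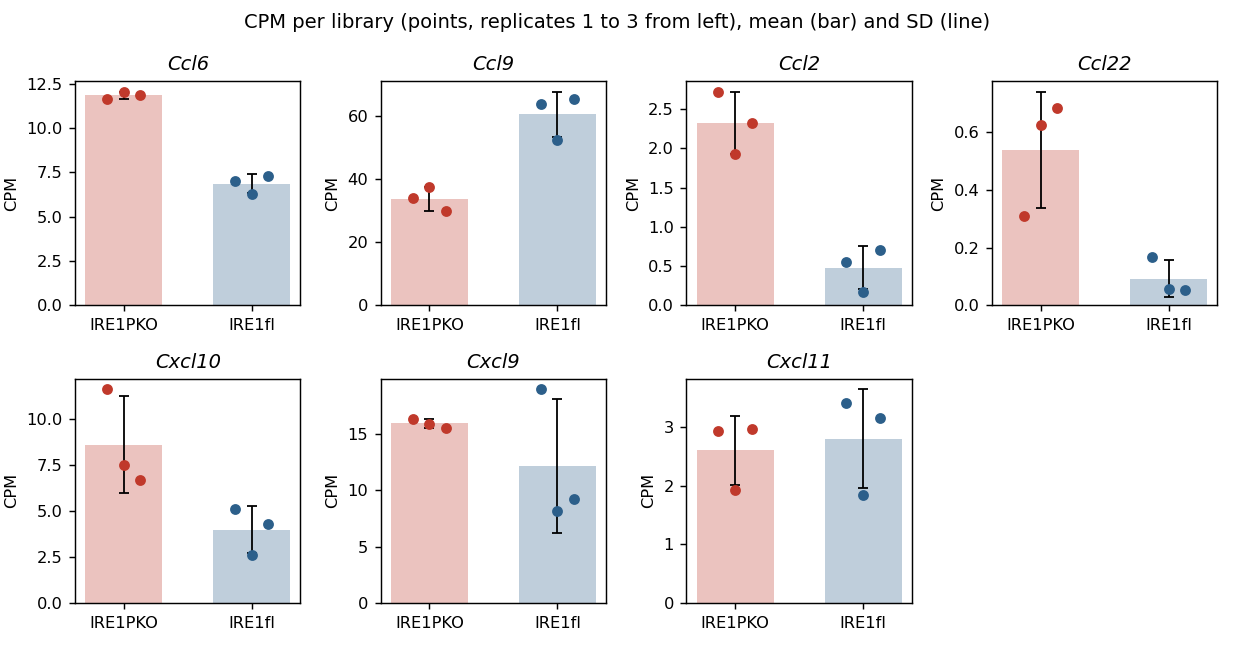
CPM (y axes from 0, each panel with its own range) of the 5 members past the threshold and of Cxcl9 and Cxcl11, with a point per library, a bar for the mean and a line for the SD of 3 libraries. Ccl6 and Ccl9 move in opposite directions with no overlap, and in Cxcl9 the IRE1fl 1 library at 19.0 CPM stands above all others.

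Ccl22, a ligand of Ccr4 made by dendritic cells and macrophages that draws regulatory T cells, was near the limit of detection. It had 12, 23 and 28 counts in the IRE1PKO libraries, against 6, 2 and 2 counts in the IRE1fl libraries, or 0.539 ± 0.202 and 0.0923 ± 0.0640 CPM (SD, n = 3 each). The groups did not overlap and Ccl22 (chromosome 8, 94745684 to 94751388) rose by a log2 value of 2.51 (SE 0.66, edgeR adjusted p = 0.0367). The call was kept without IRE1fl 1 and lost without any other single library (adjusted p up to 0.134). Its receptor Ccr4 had no counts in any library. Ccl17, the other Ccr4 ligand, had at most 4.

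A homeostatic ligand took most of the family's counts in both genotypes. Cxcl12, which retains leukocytes and progenitors through Cxcr4, took 69.7% to 70.6% of the summed CPM of the 56 members in IRE1PKO and 68.6% to 77.5% in IRE1fl. Per kilobase of exon it stood at 35.3 ± 0.4 CPM in IRE1PKO and 41.3 ± 5.4 CPM in IRE1fl (SD, n = 3 each), the highest of the 32 members in both. Next came Ccl9 with 11.1 ± 1.2 CPM per kilobase in IRE1PKO and 19.9 ± 2.4 in IRE1fl. Ccl6 and Cxcl9 followed, at 6.61 ± 0.11 and 5.29 ± 0.13 CPM per kilobase in IRE1PKO, where their spreads did not overlap, and at 3.82 ± 0.30 and 4.02 ± 1.97 in IRE1fl, where they did. Exon lengths are from GENCODE M21 and may not be those the counts were made with.

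Cxcl12 had 293, 287 and 286 CPM in the IRE1PKO libraries, against 312, 388 and 312 CPM in the IRE1fl libraries. All IRE1PKO libraries were below all IRE1fl libraries, yet the log2 value of -0.22 (SE 0.11) did not pass (edgeR adjusted p = 0.217), and IRE1fl 2 alone was far above the rest. Cxcr4, its receptor, had 0.719, 1.44 and 1.47 CPM in IRE1PKO, against 1.22, 0.993 and 0.674 CPM in IRE1fl, and overlapped. Cxcl14, an epithelial and stromal chemokine, had 1.41, 1.19 and 3.40 CPM in IRE1PKO, against 0.886, 1.22 and 0.539 CPM in IRE1fl. Its log2 value of 1.19 (SE 0.46) did not pass (edgeR adjusted p = 0.135) and was 0.57 without IRE1PKO 3.

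Ccl25, the ligand of Ccr9, had 1.72, 2.20 and 2.86 CPM in IRE1PKO, against 2.74, 4.48 and 2.72 CPM in IRE1fl. Ccl27a, a ligand of Ccr10, had 6.11, 6.73 and 4.82 CPM in IRE1PKO, against 7.45, 7.18 and 5.28 CPM in IRE1fl. Both overlapped between the groups, with log2 values of -0.55 (SE 0.28) and -0.17 (SE 0.19) that did not pass. Ccl27a has a close copy, Ccl27b, so its read assignment is uncertain. Of the 6 homeostatic ligands tested none passed by edgeR or DESeq2 and 1, Cxcl14, had an unadjusted p under 0.05, with a median log2 value of -0.20. Of the 15 inflammatory ligands tested 4 rose and 1 fell, with a median of 0.40. Over all tested genes 5.68% were called higher and 3.86% lower. The inflammatory median was 0.21 without IRE1fl 2, 0.62 without IRE1PKO 1, 0.66 without IRE1fl 1 and 0.85 without IRE1fl 3, and the homeostatic median was -0.31 without IRE1fl 3.

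Ligands of Cxcr2, the receptor that brings neutrophils out of blood, did not differ beyond the spread between libraries. Cxcl1 had 6.80, 7.71 and 8.41 CPM in IRE1PKO, inside the 3.96, 5.84 and 10.6 CPM of IRE1fl. Cxcl2 had 0.154, 1.11 and 0.880 CPM in IRE1PKO, against 0.249, 0.539 and 1.10 CPM in IRE1fl. Cxcr2 had 6, 2 and 10 counts in IRE1PKO and 4, 28 and 14 in IRE1fl, which met the reporting minimum but not the filter of the test, so it has no p. Cxcl3 and Cxcl5 had at most 4 counts in any library. Cxcl16, a membrane-bound ligand of Cxcr6 that holds NKT cells in sinusoids, had 10.9, 11.3 and 8.92 CPM in IRE1PKO, against 9.91, 7.49 and 7.90 CPM in IRE1fl. Its log2 value of 0.30 (SE 0.16) did not pass (edgeR adjusted p = 0.274), and 18.3% of its exon bases are shared with a gene on the opposite strand. Cxcr6 had 0.666 ± 0.317 CPM in IRE1PKO and 0.908 ± 0.345 CPM in IRE1fl (SD, n = 3 each).

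No receptor typical of lymphoid or dendritic cells passed by edgeR. Ccr7, which takes dendritic and naive T cells to lymph nodes, had 0.411, 0.489 and 0.269 CPM in IRE1PKO, against 1.16, 0.794 and 0.755 CPM in IRE1fl. The groups did not overlap, but the log2 value of -1.21 (SE 0.44) did not pass (edgeR adjusted p = 0.108), nor with any library left out. Xcr1, the receptor of cross-presenting dendritic cells, had 0.513, 0.244 and 0.489 CPM in IRE1PKO, against 0.831, 0.851 and 0.647 CPM in IRE1fl. It too did not overlap and did not pass, at -0.89 (SE 0.45, edgeR adjusted p = 0.244). Ccr9, Cxcr3, Cxcr5 and Cxcr6 had log2 values between -0.69 and 0.01 with overlapping groups. Of the exon bases of Ccr9, 18.8% are shared with another gene on the opposite strand. Few counts were assigned to Ccr7 ligands, with none for Ccl21a, Ccl21b or Ccl21c in any library and at most 16 for Ccl19. How reads that match several genes were counted is not given, so the zeros of the Ccl21 genes may not show absent RNA.

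The fractalkine pair and the remaining members overlapped between the groups. Cx3cr1, a monocyte receptor, had 2.05, 1.09 and 2.71 CPM in IRE1PKO, against 1.83, 0.908 and 0.593 CPM in IRE1fl, a log2 value of 0.82 (SE 0.46) that did not pass. The Cx3cr1 value was 1.38 without IRE1fl 1 (edgeR adjusted p = 0.0807) and 0.50 without IRE1PKO 3, and it passed in neither fit. Its ligand Cx3cl1 had 0.513, 0.434 and 1.30 CPM in IRE1PKO, against 1.22, 0.993 and 0.593 CPM in IRE1fl. Ccl24, an eosinophil chemokine, Cxcl13, a B cell chemokine, Ccl28 and Ccr10 had log2 values of 0.40, -0.63, -0.16 and 0.43, none past the threshold. Over the 26 tested members that did not pass, log2 values ran from -1.21 to 3.33 and edgeR adjusted p from 0.0511 to 0.997, and a p that misses the threshold does not show that the groups are alike. Just inside the reporting minimum stood Ccl3, Ccl22, Ccr10, Cxcr2 and Cxcr5, with 10 or more counts in exactly 3 libraries. Just outside it stood Ccl7, with 14 and 30 counts in its highest libraries. Of the 24 members not reported, 9 had no count in any library.

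**Figure D3:**
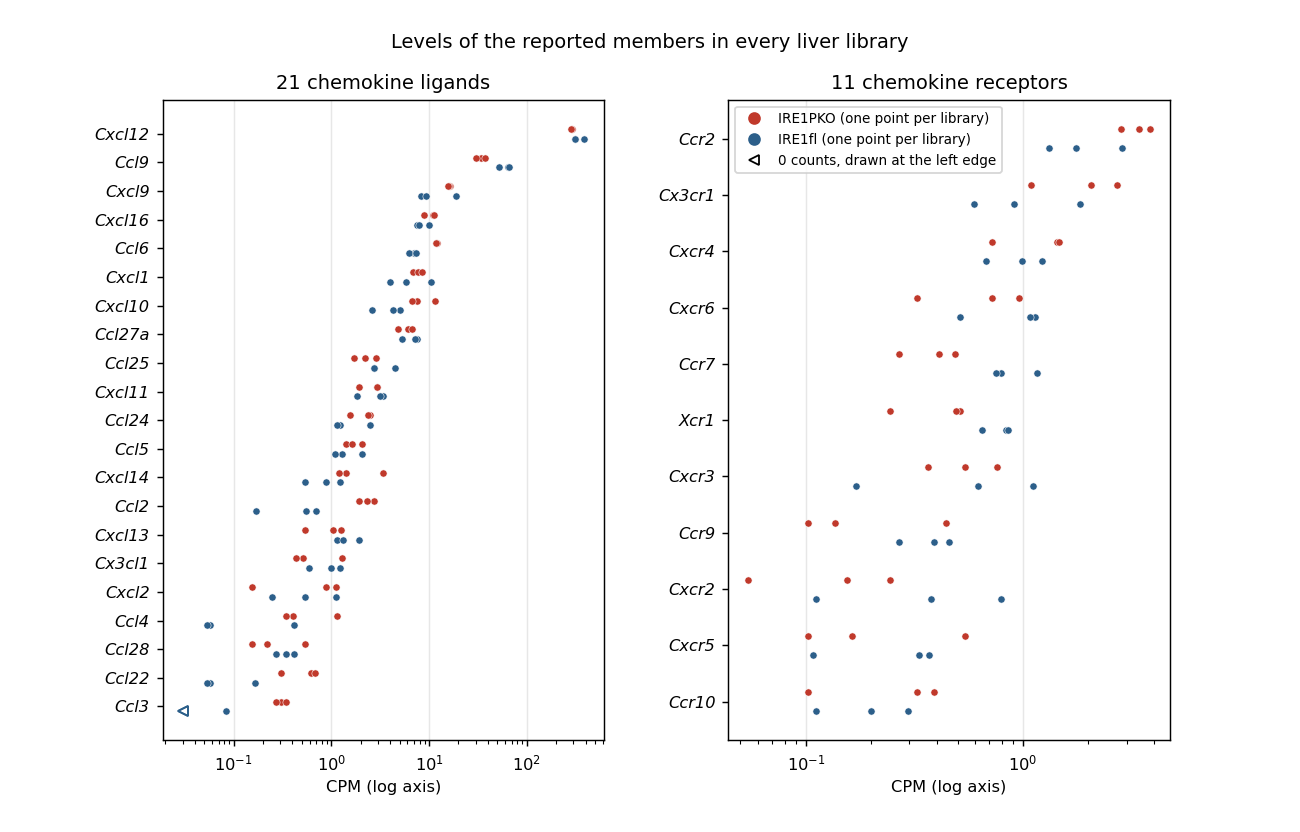
CPM in every library, not divided by gene length (x axes, logarithmic) of the 21 reported ligands and 11 reported receptors, ordered by mean level, with IRE1PKO above IRE1fl for each gene and libraries without counts drawn as open triangles at the left edge. Ccl2, Ccl6 and Ccl9 show separate groups, and the IRE1fl libraries of Ccl3 include values at 0.

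Other genes of the chemokine system and of the pathways that induce chemokines were counted from lists written with earlier results of these data known. The counts of calls stand beside 5.68% of all tested genes called higher and 3.86% called lower. Atypical receptors, platelet chemokines and related genes had 12 tested members, none past the threshold by edgeR or DESeq2 and 2, Gpr35 and Mif, with an unadjusted p under 0.05. Without IRE1PKO 3, 1 was higher. Of 28 tested genes of chemokine receptor signalling, 2 rose, near the share of all genes, and none fell, with a median log2 value of 0.25. Rgs16, which shortens G protein signalling, had 412 ± 73.9 CPM in IRE1PKO and 212 ± 27.4 CPM in IRE1fl (SD, n = 3 each) and rose by 0.96 (SE 0.14, edgeR adjusted p = 0.0024). The 17 chemokine receptors together had only 6.90 to 12.1 CPM per library, and a link of the Rgs16 change to them was not tested. Gnb1, a G protein beta subunit, rose by 0.37 (SE 0.09, edgeR adjusted p = 0.0209), a call lost without IRE1PKO 1, IRE1PKO 2, IRE1fl 2 or IRE1fl 3. Without IRE1PKO 3 the list had 4 higher, and DESeq2 also called 4.

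Of 32 tested genes of the NF-kB pathway and its feedback, 4 rose and none fell, with a median of 0.16. Tnfaip3, an inhibitor of the pathway, rose by 1.22 (SE 0.18), the NF-kB subunit Relb by 0.87 (SE 0.18), the receptor Tlr2 by 0.91 (SE 0.19) and the subunit gene Nfkb2 by 0.56 (SE 0.14), with edgeR adjusted p of 0.00216 to 0.0341. Tnfaip3 passed whichever library was left out, Relb was lost without IRE1PKO 1, and Tlr2 without IRE1PKO 2 or IRE1fl 2. Nfkb2 was lost without IRE1PKO 1, IRE1PKO 2, IRE1fl 2 or IRE1fl 3. The count was 2 without IRE1PKO 1, IRE1PKO 2 or IRE1fl 2 and 6 without IRE1fl 1, and DESeq2 called 5 higher and 1 lower. Of 12 tested AP-1 and stress kinase genes 3 rose and none fell, with a median of 0.42. Jun had 63.5 ± 8.42 CPM in IRE1PKO and 14.8 ± 1.89 CPM in IRE1fl, Atf3 rose by 2.32 (SE 0.42) and Gadd45b by 1.98 (SE 0.41). The Gadd45b call was lost without IRE1PKO 1 or IRE1fl 2. Of 23 tested interferon response genes other than the chemokines, Usp18, a brake on interferon signalling, rose by 0.66 (SE 0.17, edgeR adjusted p = 0.0332) and no other passed. The Usp18 call was lost without each library but IRE1fl 3, the list median was 0.09, and DESeq2 called 3 higher and 1 lower.

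Some lists of markers of cells that make or receive chemokines differed between the genotypes in summed level and others overlapped, and their part in the results above was not tested. In bulk RNA, fewer cells of a type and less RNA per cell cannot be told apart. Over all tested genes 5.68% were called higher and 3.86% lower, so 1 call in a marker list says little about that list. Without chemokines and their receptors, the list of monocytes and recruited macrophages had 5 of 15 tested members higher and none lower, with a median log2 value of 1.01. Its summed level was 198 to 225 CPM in IRE1PKO and 123 to 152 CPM in IRE1fl, without overlap. Log2 values were above 0 for 14 of the 15, and Ly6c2 (-0.37) lay below 0 without passing. Plac8 (0.27) and Chil3 (1.14) did not pass either. Gpnmb rose by 3.57 (SE 0.48), Cd63 by 1.53 (SE 0.23), Spp1, which bile duct cells also make, by 0.81 (SE 0.13) and the endotoxin co-receptor Cd14 by 1.01 (SE 0.21), with edgeR adjusted p of 0.00137 to 0.0113. The Cd14 call was lost without IRE1PKO 1 or IRE1PKO 2, which left 3 members higher, and DESeq2 called 9.

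Kupffer cell markers had 1 of 16 tested members higher and 1 lower, with summed levels of 897 to 1138 CPM in IRE1PKO and 827 to 1088 CPM in IRE1fl. The scavenger receptor Marco fell by 0.84 (SE 0.13) and Folr2 rose by 0.60 (SE 0.16), and the Folr2 call was lost without each library but IRE1PKO 3. Dendritic cell markers had 1 of 12 higher, the actin bundler Fscn1 by 0.75 (SE 0.16), a call lost without IRE1PKO 1, IRE1PKO 2 or IRE1fl 3, and summed levels of 367 to 501 CPM in IRE1PKO and 314 to 480 CPM in IRE1fl. T and NK cell markers had 1 of 15 lower, with a summed level of 5.67 to 7.90 CPM in IRE1PKO and 9.65 to 12.0 CPM in IRE1fl, without overlap. The member that fell was Cd4, by 2.09 (SE 0.37), and the list median was -0.45, with log2 values above 0 for 3 of the 15. Cd4 had a mean of 0.596 CPM in IRE1PKO and 2.56 CPM in IRE1fl, a large part of the difference in sums. Whether the sums separate without Cd4 was not tested. B and plasma cell markers had 1 of 9 lower, Jchain by 1.48 (SE 0.33), a call lost without IRE1PKO 1, IRE1PKO 2 or IRE1fl 3. Their summed level was 9.47 to 11.5 CPM in IRE1PKO and 11.2 to 16.0 CPM in IRE1fl. No neutrophil marker of 5 tested passed by edgeR, DESeq2 called 1 higher, and 1, Hdc, had an unadjusted edgeR p under 0.05. Their summed levels were 17.1 to 22.9 CPM in IRE1PKO and 11.9 to 24.6 CPM in IRE1fl. Hdc, at a mean of 13.9 CPM in IRE1PKO and 8.33 CPM in IRE1fl, weighs heavily in these sums. It was the only 1 of the 5 with a log2 value above 0 (0.74), and the list median was -0.775.

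Among resident cells, 9 of 17 tested markers of stellate cells and fibroblasts rose, with summed levels of 685 to 742 CPM in IRE1PKO and 439 to 536 CPM in IRE1fl. Col1a1 rose by 2.08 (SE 0.22), Col3a1 by 1.60 (SE 0.13), Col1a2 by 1.53 (SE 0.17) and Lrat, which stores retinoids, by 0.96 (SE 0.13). Log2 values were above 0 for 15 of the 17, and Thy1 (-0.74) and Acta2 (-0.35) lay below 0 without passing. Of 18 endothelial markers 6 rose, with summed levels of 540 to 712 CPM in IRE1PKO and 448 to 495 CPM in IRE1fl. The count was 1 without IRE1PKO 1 or IRE1fl 3, 2 without IRE1PKO 2, 3 without IRE1fl 2 and 9 without IRE1PKO 3. Plvap rose by 0.56 (SE 0.10) and passed whichever library was left out. Of 16 hepatocyte markers 5 fell, among them Serpina1a by 0.90 (SE 0.11), Cps1 by 1.16 (SE 0.15) and Tat by 1.10 (SE 0.18). Log2 values were above 0 for 5 others, the largest that of Cyp3a11 at 1.23 (SE 0.58), and none of these passed. Without IRE1fl 1, 1 hepatocyte marker was called higher. Of 8 cholangiocyte markers Spp1 rose and Sox9 fell, by 1.28 (SE 0.22). Summed levels of the list were 59.33 to 70.1 CPM in IRE1PKO and 54.64 to 59.29 CPM in IRE1fl, a bare separation. That separation rests on Spp1, while the list median was -0.14 and log2 values were above 0 for only 3 of the 8. Spp1, with a mean of 40.85 CPM in IRE1PKO and 23.25 CPM in IRE1fl, is also part of the sum for monocytes and recruited macrophages. The count of stellate markers was 6 to 10 and that of hepatocyte markers 3 to 5 when single libraries were left out, the lowest without IRE1fl 3 and IRE1PKO 2. No platelet marker of 4 tested passed by edgeR or DESeq2 or had an unadjusted p under 0.05. No lymphatic stroma marker of 5 tested passed by edgeR, 2 had an unadjusted p under 0.05, and DESeq2 called 1 higher and 1 lower. Apart from the lymph node gene Glycam1 and the Ccl21 genes, no gene of these marker lists was at 0 in all libraries.

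**Figure D4:**
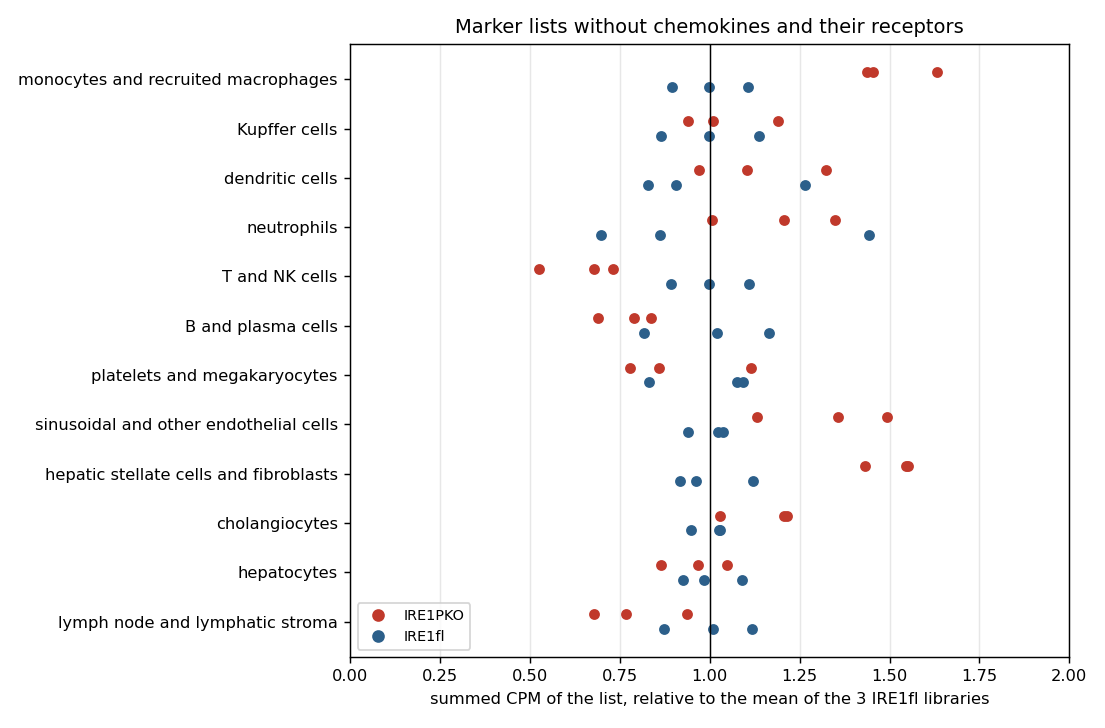
Summed CPM of each marker list without chemokines and their receptors, divided by the mean of the 3 IRE1fl libraries (x axis, from 0), with a point per library and IRE1PKO above IRE1fl. The lists of monocytes and recruited macrophages, stellate cells and endothelial cells lie higher in all IRE1PKO libraries and the T and NK cell list lower, while Kupffer cells, dendritic cells and neutrophils overlap. The cholangiocyte sum is also higher in all IRE1PKO libraries, by a bare margin that rests on Spp1, while most of its tested markers lean lower.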

How the data were processed

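Poly(A) RNA of mouse liver was sequenced in 6 libraries. The authors deposited raw counts per gene symbol, 1 column per library, with mm10 as the build per the submitters' processing notes. Aligner, counting program, annotation and strand setting: not given in the sources used here. Among values from 1 to 8, even counts outnumbered odd ones 2.58 to 3.19 times, and whether reads or pairs were counted is not stated. The table held 27 date-like names (0.178% of counts), kept in totals and tests.

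Columns were matched to samples by genotype and number. Of 35976 genes, 14954 passed filterByExpr in edgeR 4.0.16 (R 4.3.3). Counts were TMM-scaled and tested with the robust two-sided quasi-likelihood test. Benjamini-Hochberg adjustment ran over all 14954 genes, with 0.05 as the threshold. CPM uses TMM-scaled totals, and log2 fold changes are IRE1PKO over IRE1fl. The chi-square per gene between libraries of one genotype was 30.7 to 68.5, so none is a copy.

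The members and gene lists were chosen with earlier results of these data known. Values are given for members past the threshold, with an absolute log2 value of 1 or more, or among the 10 highest in CPM, and from other lists for at most 4 called genes. Other members are named to account for the family, chosen after their values were seen. Grk2 and Grk3 were found under older symbols and 5 listed symbols were not found. Coordinates are RefSeq's (GRCm38.p6, the build mm10 names). Upstream windows from RefSeq matched 23 of 32 reported members. 1 member found by the name rule is not reported here and is left out of the member counts, and 1 of the 4 ratios computed is likewise not shown.

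On counts simulated for the 14954 genes of this comparison with 200 changed, recovery was 16.4% at a 1.5-fold change (67 genes), 68.7% at 2-fold (67 genes) and 93.9% at 4-fold (66 genes). Of 129 calls, 7.75% were false. With none changed, 1 gene was called. The 200 changed genes are fewer than the 1426 called in the data and were drawn from all expression levels. These shares may therefore not hold for this comparison or for members with few counts. Alternatives were DESeq2 1.42.0 size factors and Wald test, library totals, no filter, a mean of 1 CPM, limma-voom (limma 3.58.1), a trend without robust fitting, halved counts, a threshold of 0.1, a replicate block, and each library left out.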

Additional observations from a re-analysis of the deposited data

How the results depend on the processing

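Ccl2, Ccl6 and Ccl9 kept their call under all 16 alternatives, and no called member changed sign under any. The 4 members higher were 3 at a mean of 1 CPM, where Ccl22 was not tested, and 2 to 8 with each library left out; the cause was not tested. Ccl3 passed with library totals (0.0452), DESeq2 and limma-voom. The 1 member lower was the same gene throughout. Of uncalled members with values given by rule, Cxcl1 changed sign without IRE1fl 1, with values of -0.11 to 0.64 over the libraries left out, and Cxcl11 without IRE1PKO 2 (0.069) or IRE1fl 1 (0.055), with a lowest value of -0.33. Over all 31 tested members, 16 of 476 values changed sign, in 6 uncalled members. All genes called higher numbered 849, against 1299 at a threshold of 0.1 and 398 to 868 with each library left out. Those called lower numbered 577, against 992, 890 by DESeq2 and 255 to 616. Library totals as the only scaling gave 1148 higher and 415 lower, in place of 849 and 577, and moved the median of all genes to 0.07. Of 544 counts of other lists, 74 moved over 1.5 times, 38 of them with a library left out.

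Libraries of the same number had deviations that correlated at 0.07, -0.02 and 0.10, and those of different number at -0.11 to 0.03. These weak values do not settle whether the numbers are pairs, and the main test did not take them as pairs. With the replicate block, 3 members were higher, and Ccl22 had an adjusted p of 0.0597. Depth limits Ccl3, Ccl4 and Ccl22, which with halved counts fell under the filter, leaving 3 members higher.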
